A study of Caenorhabditis elegans with 18 samples.

Results

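Nuclear hormone receptor genes of Caenorhabditis elegans were followed across 5 benzimidazole anthelmintics and their solvent control. Members were all genes whose WormBase symbol is nhr- followed by a number, 268 of the 20395 gene identifiers in the count table, and each is annotated as protein coding. RNA came from whole worms. Every group, controls included, was of strain CB3474, a ben-1(e1880)III mutant in the beta-tubulin through which these drugs act on wild-type worms. Exposure lasted 4 h at 1.13 mM. The drugs were ABZ (albendazole), FBZ (fenbendazole), OxBZ (oxfendazole), MBZ (mebendazole) and TBZ (thiabendazole), and the controls received only the solvent DMSO, with 3 libraries in each of the 6 groups. No wild-type strain is among the groups, so whether a response depends on the ben-1 allele was not tested. The protocol describes growth for about 70 h to adulthood at 20 °C, whereas the source label calls the animals larvae of mixed stages. The 9 oocyte markers all had reads in every group, with a summed level of 3850 to 6320 CPM (counts scaled to a common library size), and the labels were not reconciled here. Independent cultures behind the 3 libraries of a group are not identified, so p-values measure the spread between libraries.

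Nuclear hormone receptors are transcription factors that bind DNA through a zinc finger domain and, through another domain, bind small lipophilic molecules or a partner protein. The nematode family is far larger than that of flies or mammals, and most members descend from an ancestor related to the vertebrate receptor HNF4. In worms the studied members control fat oxidation and desaturation, the breakdown of propionate, molting, and the induction of cytochrome P450 genes by foreign compounds, while most members have no known ligand. The drugs share a benzimidazole core. ABZ carries a carbamate and a propylthio group, FBZ a carbamate and a phenylthio group, OxBZ, also a carbamate, is the sulfoxide of FBZ, MBZ carries a carbamate and a benzoyl group, and TBZ has a thiazole ring in place of the carbamate.

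Most receptor transcripts were scarce. In DMSO 60 members had a mean level of at least 10 CPM, 106 were between 1 and 10 CPM, 102 were under 1 CPM, of which 11 had no read, and the median was 2.62 CPM. Per kilobase of exon, the highest level in DMSO belonged to nhr-49, a regulator of fat metabolism, at 82.2 CPM per kb, followed by nhr-114, which protects worms on diets low in vitamin B12, at 67.7, nhr-55 at 47.5, nhr-68, a regulator of propionate breakdown, at 44.2, and nhr-14, known for iron and pathogen responses, at 34.4. Libraries held 57010263 to 67277284 counts, so 1 read in the smallest library was 0.018 CPM. After a filter on low counts 224 members were tested, and the 44 others stayed at or below 0.311 CPM in every library. Sperm markers summed to 4120 CPM in ABZ replicate 2 and 4580 CPM in DMSO replicate 2, and 207 to 1230 CPM in all other libraries. Chromosome V carried 166 of the 268 members, and 135 members lay next to another member in the gene order.

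Receptor transcripts rose more often than they fell under ABZ, FBZ, MBZ and TBZ, and about equally often under OxBZ. Relative to DMSO, 15 of 224 tested members (6.7%) rose and 2 (0.893%) fell under ABZ, where 1.6% of all 17484 tested genes rose and 0.606% fell. Under FBZ 49.6% of the members rose and 17 (7.59%) fell, against 24.3% and 27.4% of all genes. Under OxBZ 34 members (15.2%) rose and 37 (16.5%) fell, against 21.2% and 21.5% of all genes. Under MBZ 11 members (4.91%) rose and 1 (0.446%) fell, against 1.25% and 0.235% of all genes. Under TBZ 20 members (8.93%) rose and 6 (2.68%) fell, against 3.06% and 3.17% of all genes. Each count rests on edgeR's quasi-likelihood test with Benjamini-Hochberg adjustment over all genes and a threshold of 0.05. Levels scaled by library totals alone, without correction for composition, gave 39 higher and 4 lower under TBZ. Without ABZ replicate 2 and DMSO replicate 2 6 members were higher under ABZ, 21 under OxBZ, 6 under MBZ and 10 under TBZ, and 11 were lower under FBZ. The 5 comparisons share the 3 DMSO libraries, so their results are not independent of each other. In these bulk libraries fewer cells of a type and less RNA per cell cannot be told apart.

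**Figure D1:**
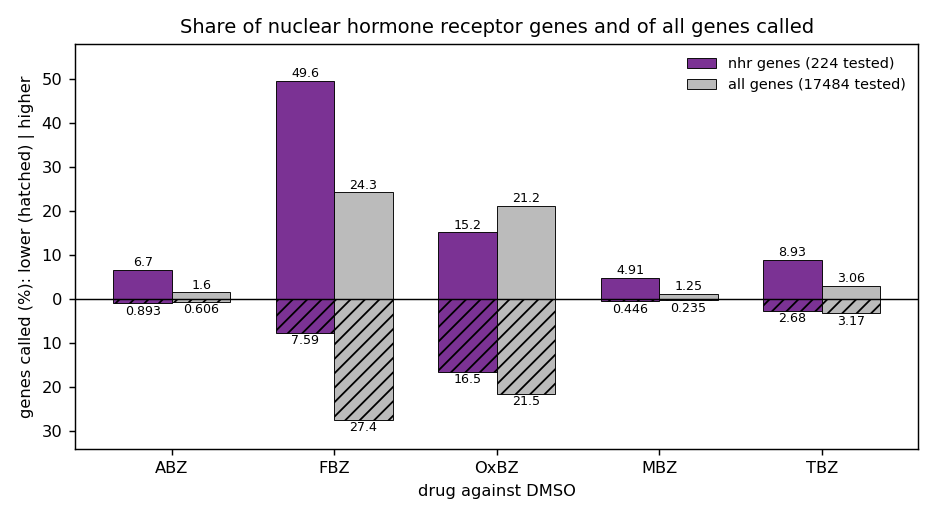
Percentage of tested genes higher (bars above 0) and lower (hatched bars below 0) than DMSO under each drug by edgeR at adjusted p under 0.05, for the 224 tested nhr genes (purple) and all 17484 tested genes (grey). Under FBZ 49.6% of nhr genes rose, against 24.3% of all genes, and 7.59% fell, against 27.4%.

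The median log2 fold change of the tested members against DMSO was 0.16 for ABZ, 0.58 for FBZ, 0.05 for OxBZ, 0.27 for MBZ and 0.20 for TBZ, whereas the median of all genes lay between -0.01 and 0.01 for each drug. Because scarce and abundant genes differed in how often they passed the test, members were also set beside genes of the same mean level. Among genes with a mean of 1 to 10 CPM over all libraries, 11.8% of the 102 members rose under ABZ, against 1.24% of the 5237 genes at that level. The same shares were 51% of members and 34.9% of genes for FBZ, 23.5% and 8.12% for OxBZ, 7.84% and 1.05% for MBZ, and 11.8% and 3.88% for TBZ. Between 0.1 and 1 CPM the shares that rose under OxBZ were 4% of 50 members and 3.73% of genes. At 10 CPM or more they were 2.94% of 68 members and 2.36% of genes for ABZ, 48.5% and 17.7% for FBZ, 2.94% and 1.78% for MBZ, and 8.82% and 3.04% for TBZ. At that level the order under OxBZ was the opposite, with 8 of 68 members (11.8%) higher and 21 lower, beside 36.4% of genes at that level higher and 14.9% lower. Members together took 0.246% ± 0.0214 of counts under ABZ, 0.308% ± 0.00448 under FBZ, 0.209% ± 0.0109 under OxBZ, 0.275% ± 0.0286 under MBZ and 0.284% ± 0.0177 under TBZ, against 0.232% ± 0.0129 in DMSO (SD, n = 3 each). The FBZ libraries, at 0.304% to 0.313%, and the TBZ libraries, at 0.265% to 0.3%, lay above all DMSO libraries, at 0.22% to 0.245%.

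**Figure D2:**
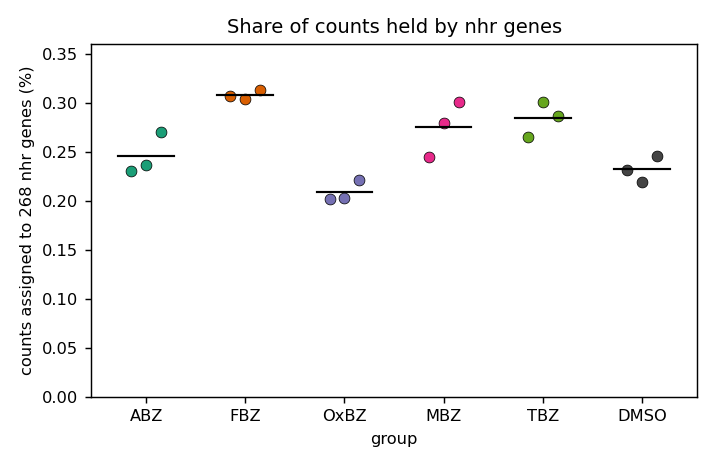
Share of all counts assigned to the 268 nhr genes (vertical axis, %) in each library, with a bar at the group mean of 3 libraries. FBZ libraries lie between 0.304% and 0.313%, TBZ libraries between 0.265% and 0.3% and DMSO libraries between 0.22% and 0.245%.

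Some receptors responded to nearly every drug. Of the 224 members 9 (4.02%) were higher under at least 4 of the 5 drugs, beside 0.904% of all genes, and 3 (1.34%) were higher under all 5, beside 0.337%. The 3 were nhr-142, nhr-237 and nhr-214, and the other 6 were nhr-3, nhr-59, nhr-128, nhr-146, nhr-178 and nhr-205. Of these, nhr-214 had no read in DMSO and entered the tests only through drug libraries, so it adds no independent support to these shares. A single member, nhr-55, was lower under all 5 drugs (0.446%, beside 0.0286% of all genes). In all, 155 members (69.2%) passed under at least 1 drug, beside 71% of all genes, and 69 under none.

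The gene nhr-237 (WBGene00021610), a receptor without a studied role, had its largest rise under OxBZ. Its levels were 2.63, 3.24 and 2.74 CPM under ABZ, 4.39, 4.08 and 4.45 CPM under FBZ and 11.2, 8.86 and 8.55 CPM under OxBZ. MBZ libraries held 2.31, 2.29 and 2.15 CPM and TBZ libraries 3.87, 3.32 and 2.33 CPM, against 1.05, 1.42 and 0.94 CPM in DMSO. Every library of each drug lay above all DMSO libraries, and OxBZ libraries lay above those of all other drugs. The log2 fold change was 1.34 ± 0.21 for ABZ, 1.92 ± 0.21 for FBZ, 3.07 ± 0.22 for OxBZ, 0.99 ± 0.21 for MBZ and 1.48 ± 0.21 for TBZ (± approximate SE), with edgeR adjusted p of 0.00264, 2.13e-05, 2.42e-07, 0.0276 and 0.000769. The MBZ call was lost without FBZ replicate 1 or MBZ replicate 2 or 3 or DMSO replicate 3 (adjusted p up to 0.115).

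A like pattern was seen in nhr-142 (WBGene00018430), on the same chromosome V but not next to nhr-237. It had 4.04, 5.46 and 3.9 CPM under ABZ, 6.4, 5.77 and 5.9 CPM under FBZ and 14.3, 11.9 and 11.6 CPM under OxBZ. MBZ libraries held 3.95, 4.07 and 5.2 CPM and TBZ libraries 4.66, 5.17 and 5.65 CPM, against 2.39, 1.85 and 1.38 CPM in DMSO. No drug library overlapped the DMSO libraries, and the OxBZ libraries again stood highest. Its log2 fold changes were 1.25 ± 0.2, 1.69 ± 0.2, 2.75 ± 0.21, 1.23 ± 0.2 and 1.46 ± 0.2 in the same order of drugs, all past the threshold (edgeR, adjusted p between 4.65e-07 and 0.00486). Exons of nhr-142 overlap a lincRNA gene on the same strand, which was not analysed here.

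The order of drugs differed for nhr-205 and nhr-178, receptors without a studied role. For nhr-205 (WBGene00011002) levels were 3.84, 4.49 and 2.89 CPM under ABZ, 2.74, 2.37 and 2.62 CPM under FBZ and 3.74, 3.9 and 3.56 CPM under OxBZ. MBZ libraries held 2.03, 1.72 and 1.38 CPM and TBZ libraries 4.82, 3.29 and 3.02 CPM, against 0.913, 1.36 and 0.811 CPM in DMSO. ABZ, OxBZ and TBZ libraries stood highest and MBZ libraries nearest to DMSO, though without overlap. The log2 fold change was 1.86 ± 0.26 for ABZ, 1.86 ± 0.25 for OxBZ and 1.85 ± 0.25 for TBZ, 1.32 ± 0.25 for FBZ (edgeR, adjusted p = 0.000919) and 0.73 ± 0.25 for MBZ, which did not pass (edgeR, adjusted p = 0.179). For nhr-178 (WBGene00017510) levels were 4.65, 5.01 and 2.4 CPM under ABZ, 2.88, 2.5 and 3.12 CPM under FBZ and 5.07, 3.74 and 3.08 CPM under OxBZ. MBZ libraries held 3.4, 2.59 and 2.64 CPM and TBZ libraries 1.08, 0.667 and 0.792 CPM, against 0.697, 1.04 and 0.568 CPM in DMSO. TBZ libraries overlapped the DMSO libraries, while those of the 4 carbamates lay above them. The log2 fold change was 2.39 ± 0.32 for ABZ, 1.88 ± 0.32 for FBZ, 2.37 ± 0.32 for OxBZ, 1.9 ± 0.32 for MBZ and 0.14 ± 0.32 for TBZ, where the interval ran from -0.532 to 0.82 (edgeR, adjusted p = 0.793). Exons of nhr-178 overlap those of F16B4.2 on the other strand, whose log2 fold changes were 1.77, 1.77, 1.68, 1.39 and 0.07, and the strand setting of the counting is not given in the sources used here, so the reads of these genes cannot be told apart.

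Among more abundant members, nhr-3 (WBGene00003602), a receptor without a studied role, reached 69.6, 68.5 and 71.2 CPM under FBZ, 80.1, 69 and 66.2 CPM under OxBZ, 51.5, 52.9 and 70.7 CPM under MBZ and 34.8, 69.1 and 64.2 CPM under TBZ, against 28.6, 23.2 and 30.6 CPM in DMSO. TBZ replicate 2, at 34.8 CPM, lay far below the other TBZ libraries but above DMSO. The log2 fold change was 1.34 ± 0.21, 1.39 ± 0.21, 1.09 ± 0.21 and 1.03 ± 0.21 for these drugs (edgeR, adjusted p = 0.000261, 0.000173, 0.0145 and 0.00916). ABZ libraries of nhr-3, at 42, 46.6 and 52 CPM, also lay above DMSO, but the difference of 0.77 ± 0.2 did not pass (edgeR, adjusted p = 0.0737). The calls were lost without MBZ replicate 3 or DMSO replicate 2 (adjusted p up to 0.0912) for MBZ and without TBZ replicate 3 or 4 (adjusted p up to 0.0552) for TBZ. The scarcer nhr-59 passed under the same 4 drugs, with log2 fold changes of 1.36 ± 0.22 for FBZ, 1.2 ± 0.22 for OxBZ, 1.09 ± 0.21 for MBZ and 0.85 ± 0.21 for TBZ. Its DMSO libraries held 1.83, 1.18 and 1.6 CPM, below every drug library. The calls of nhr-59 were lost without MBZ replicate 2 or 3 or DMSO replicate 2 or 3 (adjusted p up to 0.0905) for MBZ and without TBZ replicate 3 or 4 or DMSO replicate 2 or 3 (adjusted p up to 0.139) for TBZ.

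Smaller but even rises marked nhr-128 and nhr-146, both without a studied role. Under TBZ nhr-146 had 6.32, 7.2 and 7.31 CPM, under FBZ 6.7, 6.52 and 6.83 CPM and in DMSO 3.97, 4.12 and 4.43 CPM, with no overlap and log2 fold changes of 0.73 ± 0.12 and 0.68 ± 0.12 (edgeR, adjusted p = 0.00225 and 0.000573). For nhr-128 the largest log2 fold change was 0.83 ± 0.14, under FBZ (edgeR, adjusted p = 0.000428). Under ABZ the log2 fold changes were 0.57 ± 0.14 for nhr-128 and 0.49 ± 0.12 for nhr-146 (edgeR, adjusted p = 0.0442 for each). ABZ and DMSO libraries deviated together by replicate number, and with that number as a block in a fit of these 2 groups the adjusted p was 0.179 for nhr-128 and 0.184 for nhr-146. Both ABZ calls were lost in 16 of the 18 fits that left out 1 library (adjusted p up to 0.151). Other calls of these genes that a left-out library ended were nhr-128 under OxBZ, without OxBZ replicate 1 or MBZ replicate 1 or DMSO replicate 1 or 2 (adjusted p up to 0.139), and under TBZ, without TBZ replicate 3 or 4 or DMSO replicate 1, 2 or 3 (adjusted p up to 0.11), and nhr-146 under OxBZ, without ABZ replicate 1 or OxBZ replicate 1 or 3 or MBZ replicate 1 or TBZ replicate 2 or DMSO replicate 1 or 2 (adjusted p up to 0.181).

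Reads of nhr-214 (WBGene00011566) were absent from all 3 DMSO libraries and present in every drug library. The counts were 4, 16 and 11 reads under ABZ, 32, 44 and 34 under FBZ, 4, 7 and 10 under OxBZ, 14, 4 and 16 under MBZ, and 2, 16 and 18 under TBZ, against 0 in each DMSO library. Set against a floor of 3 counts over the DMSO group, the group mean was at least 10.1-fold higher under ABZ, at least 33.0-fold higher under FBZ, at least 6.83-fold higher under OxBZ, and at least 10.7-fold higher under MBZ and under TBZ. These bounds rest on group means and leave out the spread between the drug libraries. Its exons overlap those of nhr-26 and of a pseudogene on the same strand, with 79 and 91 reads over all libraries, so the assignment of so few reads among them is uncertain. In fits of a drug and DMSO alone nhr-214 passed the filter on low counts with FBZ only. The calls were lost in 11 of the 18 fits that left out 1 library (adjusted p up to 0.119) for ABZ, in 11 of the 18 fits that left out 1 library (adjusted p up to 0.115) for MBZ and without TBZ replicate 3 or 4 or DMSO replicate 2 (adjusted p up to 0.0613) for TBZ.

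**Figure D3:**
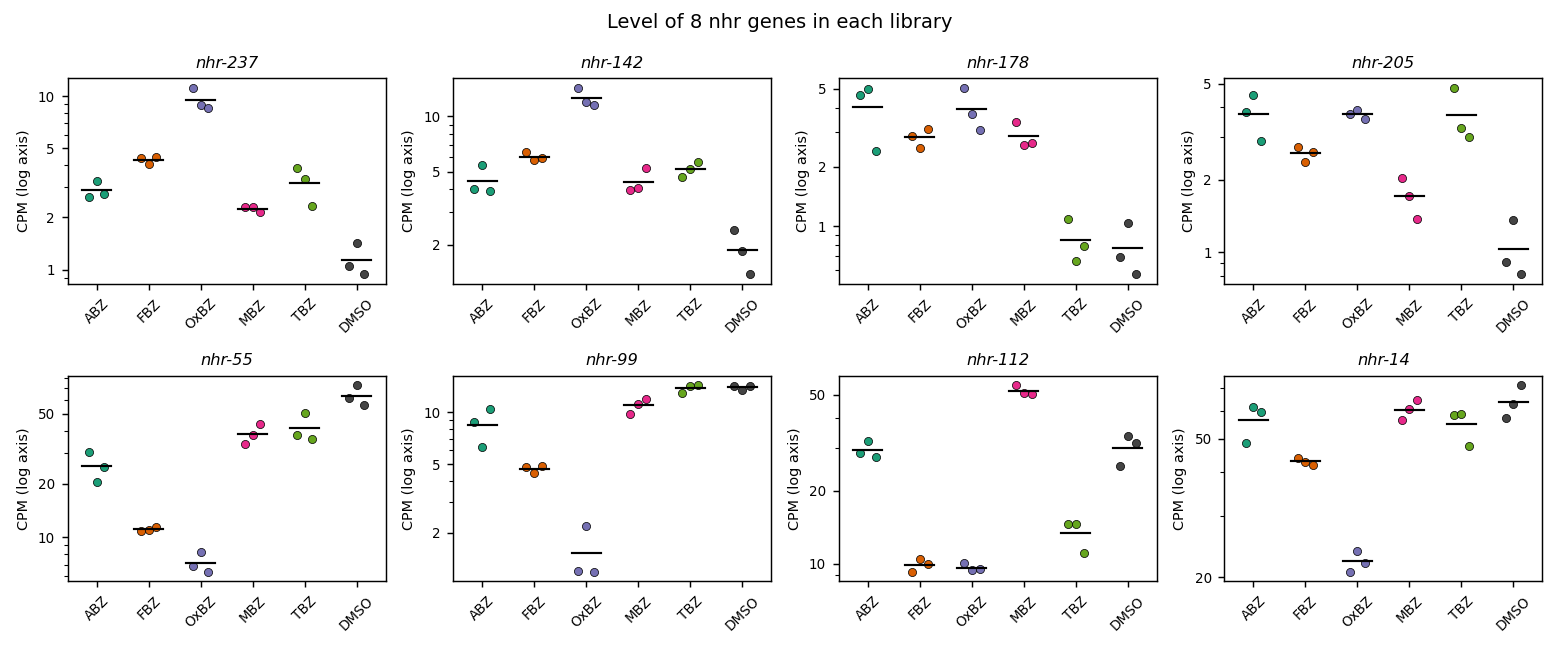
Level in CPM (log axis) of 8 nhr genes in each library, with a bar at the group mean (n = 3). In nhr-237 and nhr-142 all drug libraries lie above the DMSO libraries and OxBZ is highest, while in nhr-55 all lie below, with OxBZ at 6.83, 8.22 and 6.35 CPM against 61.4, 72.2 and 55.7 CPM in DMSO.

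The fall shared by all drugs was that of nhr-55 (WBGene00003645), one of the most abundant receptors per length in these worms. It had 30.5, 20.6 and 24.8 CPM under ABZ, 10.9, 10.9 and 11.5 CPM under FBZ and 6.83, 8.22 and 6.35 CPM under OxBZ. MBZ libraries held 33.8, 37.7 and 43.6 CPM and TBZ libraries 37.9, 50.4 and 35.8 CPM, against 61.4, 72.2 and 55.7 CPM in DMSO. All drug libraries lay below all DMSO libraries, with OxBZ lowest. The log2 fold change was -1.32 ± 0.16 for ABZ, -2.51 ± 0.17 for FBZ, -3.15 ± 0.17 for OxBZ, -0.72 ± 0.16 for MBZ and -0.61 ± 0.16 for TBZ, with edgeR adjusted p of 0.000332, 4.1e-07, 2.32e-08, 0.042 and 0.0365. The weakest calls were lost in 8 of the 18 fits that left out 1 library (adjusted p up to 0.149) for MBZ and without FBZ replicate 1, 2 or 3 or MBZ replicate 2 or TBZ replicate 2 or 4 or DMSO replicate 2 (adjusted p up to 0.173) for TBZ. Next to it in the gene order lies nhr-99, which had 4.81, 4.46 and 4.84 CPM under FBZ and 1.2, 2.19 and 1.18 CPM under OxBZ, against 14.2, 13.5 and 14.3 CPM in DMSO. The groups did not overlap, and the log2 fold change was -1.57 ± 0.22 for FBZ and -3.2 ± 0.23 for OxBZ (edgeR, adjusted p = 0.000121 and 2.79e-07). Under ABZ (-0.72), MBZ (-0.35) and TBZ (-0.01) nhr-99 did not pass.

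Albendazole gave 15 rises (6.7%) and 2 falls (0.893%) among the 224 tested members, beside 1.6% and 0.606% of all genes. At least a 2-fold rise was found in 6 and a 2-fold fall in 1, beside 1.04% and 0.28% of all genes. In 50 members all 3 ABZ libraries lay above all 3 DMSO libraries and in 4 all lay below, beside 6.63% and 5.04% of all genes. Among called members of at least 1 CPM in either group, the largest rises were those of nhr-178 and nhr-205, described above, and of nhr-11, with 9.98, 15 and 14 CPM under ABZ, against 3.22, 4.41 and 6.19 CPM in DMSO. The libraries of nhr-11 did not overlap, and its log2 fold change was 1.49 ± 0.27 (edgeR, adjusted p = 0.00841). A smaller rise was that of nhr-131, at 0.9 ± 0.2 (edgeR, adjusted p = 0.0326), a call lost in 11 of the 18 fits that left out 1 library (adjusted p up to 0.13). Besides nhr-55 the only member lower under ABZ was nhr-13, a partner of NHR-49 in the control of fatty acid desaturation, with 12.1, 11.7 and 11 CPM, against 15.5, 14.9 and 14.8 CPM in DMSO and a log2 fold change of -0.38 ± 0.08 (edgeR, adjusted p = 0.0223), a call lost without ABZ replicate 2 or 3 or DMSO replicate 3 (adjusted p up to 0.0838). With replicate number as a block in a fit of ABZ and DMSO alone, 11 members were higher and 1 lower, and nhr-13 had an adjusted p of 0.145. In a fit of these groups alone without the block no member passed by edgeR, and 25 of 200 tested members had an unadjusted p under 0.05, 22 of them higher. With the block 54 of the 200 had an unadjusted p under 0.05 by edgeR, 45 of them higher. Early embryo markers were lower under ABZ in 5 of 9, beside 0.606% of all genes. They summed to 3.75 to 5.85 CPM, against 5.63 to 14.8 CPM in DMSO, and their part in the receptor values was not tested. Leaving out 1 library lowered the count of higher members to 7 without DMSO replicate 3, to 8 without ABZ replicate 2, and to 9 without FBZ replicate 1, 2 or 3, MBZ replicate 1 or OxBZ replicate 1, and that of lower members to 1 without ABZ replicate 2 or 3 or DMSO replicate 3.

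Fenbendazole gave the most calls among receptors, most of them rises. At least a 2-fold rise was found in 46 members and a 2-fold fall in 8, beside 15.3% and 11.1% of all genes. In 147 members all 3 FBZ libraries lay above all 3 DMSO libraries and in 18 all lay below, beside 33.1% and 32.6% of all genes. Under FBZ the scarce receptor nhr-216 had 2.3, 1.7 and 2.63 CPM, against 0.614, 0.538 and 0.341 CPM in DMSO, and a log2 fold change of 2.15 ± 0.39 (edgeR, adjusted p = 0.000692). The libraries did not overlap, and no other drug passed, with log2 fold changes of 0.55 for ABZ, -0.1 for OxBZ, 0.68 for MBZ and 0.54 for TBZ. FBZ exceeded each other drug for nhr-216, by 2.24 ± 0.39 over OxBZ and 1.47 ± 0.38 over MBZ (edgeR, adjusted p over the 10 pairs = 0.000693 and 0.00885). The genes nhr-157 and nhr-125 showed the same pattern of calls, with log2 fold changes of 1.54 ± 0.41 and 1.41 ± 0.23 (edgeR, adjusted p = 0.00712 and 0.00032). Reads of nhr-125 may include those of R02D1.2, whose exons overlap it on the same strand and which rose by 1.13.

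Among called members of at least 1 CPM in either group, the largest fall under FBZ was that of nhr-247, with 0.0472, 0.223 and 0.0327 CPM under FBZ, against 0.498, 0.932 and 1.65 CPM in DMSO. All FBZ libraries lay below all DMSO libraries, at a log2 fold change of -3.29 ± 0.77 (edgeR, adjusted p = 0.00319). After nhr-247 and nhr-55 came nhr-6, which encodes the single worm receptor of the NR4A class, known for the development of the spermatheca, the organ that stores sperm. It had 16.4, 18 and 22.7 CPM under FBZ, against 47.8, 73.5 and 83.3 CPM in DMSO, without overlap. Its log2 fold change was -1.84 ± 0.37 under FBZ (edgeR, adjusted p = 0.00133) and did not pass under any other drug, where the values ran from -0.63 under OxBZ to 0.28 under MBZ, and FBZ was lower than OxBZ by direct comparison (-1.21 ± 0.37, adjusted p over the 10 pairs = 0.0226). Of the sperm markers 67 of 71 tested were lower under FBZ, beside 27.4% of all genes. Their summed level was 207 to 230 CPM, against 762 to 4580 CPM in DMSO. Under OxBZ 32 of the 71 were lower, where nhr-6 did not pass. Neuronal markers were higher under FBZ in 12 of 14, beside 24.3% of all genes, with a summed level of 878 to 927 CPM, against 552 to 665 CPM in DMSO. Under FBZ intestinal markers, 6 of 9 lower, summed to 4150 to 4240 CPM, against 6560 to 7520 CPM in DMSO. Germline markers, 9 of 9 lower, summed to 1880 to 1940 CPM, against 2350 to 2990 CPM. Oocyte markers, 7 of 9 lower, summed to 4030 to 4290 CPM, against 4900 to 5620 CPM. Epidermal markers, 1 of 7 higher and 1 lower, summed to 562 to 668 CPM, against 1340 to 1940 CPM. The part of these markers' cells in the receptor values was not tested. The count of lower members was 11 without FBZ replicate 1 or 2 or DMSO replicate 2, and that of higher members was 85 or more in every fit without 1 library.

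Oxfendazole, the sulfoxide of FBZ, moved receptors in both directions. At least 2-fold changes were found in 14 members each way, beside 3.28% of all genes higher and 14.2% lower. In 58 members all 3 OxBZ libraries lay above all 3 DMSO libraries and in 49 all lay below, beside 26.4% and 23.9% of all genes. Among called members of at least 1 CPM in either group whose libraries did not overlap those of DMSO, the largest rises were those of nhr-237, nhr-142, nhr-178 and nhr-205, followed by nhr-11 at 1.76 ± 0.27, with 18.6, 13.9 and 14.5 CPM under OxBZ, against 3.22, 4.41 and 6.19 CPM in DMSO (edgeR, adjusted p = 0.000199). By the same limits the largest falls were those of nhr-99 and nhr-55, then nhr-247 at -2.72 ± 0.74 (edgeR, adjusted p = 0.0109) and nhr-112 at -1.65 ± 0.12 (edgeR, adjusted p = 2.8e-07). Neuronal markers were lower in 10 of 14, beside 21.5% of all genes, and summed to 506 to 529 CPM, against 552 to 665 CPM in DMSO. Intestinal markers were lower in 6 of 9 and summed to 2710 to 3040 CPM, against 6560 to 7520 CPM. Sperm markers were lower in 32 of 71, summing to 429 to 906 CPM, against 762 to 4580 CPM. Muscle markers were lower in 5 of 9, summing to 4340 to 5320 CPM, against 5380 to 8270 CPM, while 3 of 9 oocyte markers were higher. The part of these markers' cells in the receptor values was not tested. The count of higher members was 17 without DMSO replicate 2 and 22 without OxBZ replicate 1, and 18 in a fit of OxBZ and DMSO alone.

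Mebendazole gave the fewest calls, 11 rises and 1 fall. Among called members of at least 1 CPM in either group, the largest log2 fold change was that of nhr-178 (1.9 ± 0.32), followed by nhr-142, nhr-3, nhr-59 and nhr-213, the last with 4.78, 4.82 and 6.01 CPM under MBZ, against 2.77, 1.67 and 2.97 CPM in DMSO, a difference of 1.07 ± 0.24 (edgeR, adjusted p = 0.0403) lost in 12 of the 18 fits that left out 1 library (adjusted p up to 0.159). Although few members passed, 66 had all 3 MBZ libraries above all 3 DMSO libraries and 4 had all below, beside 13.7% and 7.93% of all genes. A 2-fold rise was found in 6 members and a 2-fold fall in 0, beside 0.841% and 0.04% of all genes. In a fit of MBZ and DMSO alone no member passed by edgeR, while 28 of 204 had an unadjusted p under 0.05. The count of higher members was 3 without MBZ replicate 3, 4 without DMSO replicate 2 or 3, 6 without OxBZ replicate 1, and 7 without FBZ replicate 1 or MBZ replicate 2. The fall was that of nhr-55.

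Thiabendazole, which lacks the carbamate, raised 20 members and lowered 6, of which 8 and 1 changed by at least 2-fold, beside 1.88% and 1.2% of all genes. In 50 members all 3 TBZ libraries lay above all 3 DMSO libraries and in 14 all lay below, beside 11.5% and 10.7% of all genes. In nhr-121, a receptor without a studied role, TBZ libraries held 8.02, 14 and 15.4 CPM, against 5.83, 6.11 and 5.17 CPM in DMSO, without overlap. Its log2 fold change was 1.13 ± 0.2 under TBZ (edgeR, adjusted p = 0.00472), whereas no other drug passed, with values between -0.42 under OxBZ and 0.21 under MBZ. The difference MBZ minus TBZ was -0.92 ± 0.2 and ABZ minus TBZ -1.26 ± 0.2 (edgeR, adjusted p over the 10 pairs = 0.00366 and 0.000443). The scarce nhr-275 had 0.674, 1.23 and 1.6 CPM under TBZ, against 0.399, 0.43 and 0.259 CPM in DMSO, at 1.68 ± 0.35 (edgeR, adjusted p = 0.0116), a call lost without TBZ replicate 4 or DMSO replicate 3 (adjusted p up to 0.0731), and it also rose under FBZ, at 0.92 ± 0.35, a call lost without FBZ replicate 2 or 3 or OxBZ replicate 2 or TBZ replicate 3 or DMSO replicate 1 or 3 (adjusted p up to 0.157). Besides nhr-55 and nhr-112, members lower under TBZ were nhr-108 at -0.8 ± 0.18 (edgeR, adjusted p = 0.0175), nhr-135 at -0.69 ± 0.14 (edgeR, adjusted p = 0.0102), nhr-232 at -0.67 ± 0.13 (edgeR, adjusted p = 0.00794) and nhr-176, described below. The calls were lost without TBZ replicate 3 or 4 or DMSO replicate 3 (adjusted p up to 0.0915) for nhr-108 and without TBZ replicate 4 (adjusted p up to 0.0674) for nhr-135. In a fit of TBZ and DMSO alone no member passed by edgeR, while 33 of 204 had an unadjusted p under 0.05. Without TBZ replicate 2 the count of higher members was 35, and it was 6 without TBZ replicate 3 or 4, 8 without DMSO replicate 2 and 11 without DMSO replicate 3, while lower members were 3 without TBZ replicate 4.

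**Figure D4:**
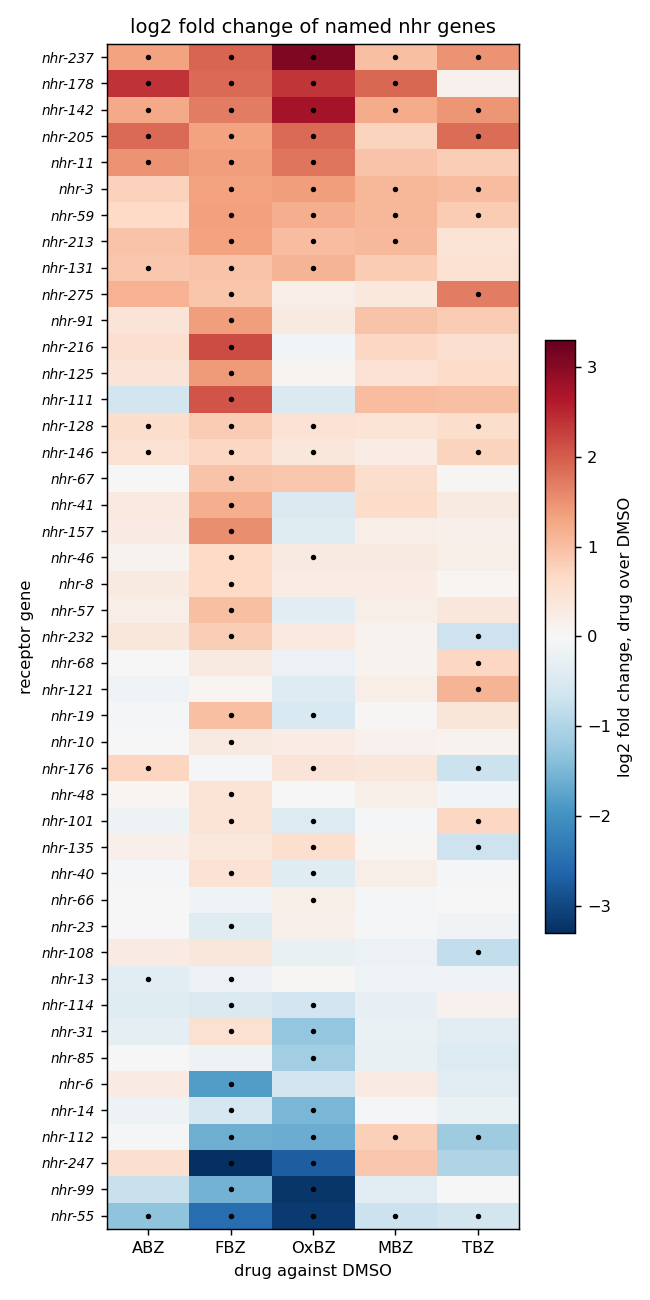
Log2 fold change against DMSO (colour, red higher and blue lower under the drug) of 45 named nhr genes in rows, for the 5 drugs in columns, with a dot where edgeR's adjusted p was under 0.05. The upper rows rose under several drugs, nhr-216 and nhr-157 passed under FBZ alone, and nhr-112 passed in both directions.

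Drugs moved 16 members in opposite directions (7.14%, beside 11.2% of all genes). In 11 of them FBZ was higher and OxBZ lower than DMSO, and in 9 of the 11 no other drug passed. The widest range was that of nhr-112 (WBGene00003702), a receptor without a studied role, which had 28.6, 32.3 and 27.7 CPM under ABZ, 9.25, 10.4 and 9.97 CPM under FBZ and 10.04, 9.39 and 9.48 CPM under OxBZ. MBZ libraries held 54.5, 50.5 and 50.4 CPM and TBZ libraries 14.6, 14.6 and 11.1 CPM, against 25.4, 33.7 and 31.5 CPM in DMSO. MBZ libraries lay above all DMSO libraries, those of FBZ, OxBZ and TBZ lay below, and ABZ libraries overlapped DMSO. The log2 fold change was 0.78 ± 0.12 for MBZ, -1.61 ± 0.12 for FBZ, -1.65 ± 0.12 for OxBZ and -1.17 ± 0.12 for TBZ (edgeR, adjusted p = 0.00244, 9.87e-07, 2.8e-07 and 5.92e-05), and -0.03 ± 0.12 for ABZ, which did not pass. In nhr-31, which in worms controls proton pump genes of the excretory cell, FBZ libraries held 67.1, 65.1 and 74.9 CPM and OxBZ libraries 17.4, 18.6 and 24.3 CPM, against 44.9, 60.5 and 40.9 CPM in DMSO. Its log2 fold change was 0.5 ± 0.18 for FBZ and -1.28 ± 0.18 for OxBZ (edgeR, adjusted p = 0.0307 and 0.000127), and the FBZ call was lost without FBZ replicate 1 or 3 or DMSO replicate 1 or 3 (adjusted p up to 0.118). For nhr-19 the values were 1 ± 0.13 for FBZ and -0.5 ± 0.12 for OxBZ (edgeR, adjusted p = 5.49e-05 and 0.00639), and for nhr-232 they were 0.81 ± 0.13 for FBZ and -0.67 ± 0.13 for TBZ.

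Among the 5 receptors known in worms for responses to foreign compounds or pathogens, nhr-176 (WBGene00008830) is the best tied to a drug of this set: it is needed for the induction of cyp-35D1, a cytochrome P450 that metabolises TBZ. The receptor itself had 6.95, 6.75 and 7.09 CPM under ABZ, 4.39, 4.17 and 3.96 CPM under FBZ and 6.14, 5.43 and 5.53 CPM under OxBZ. MBZ libraries held 5.57, 5.59 and 5.48 CPM and TBZ libraries 2.99, 2.24 and 2.52 CPM, against 4.68, 4.3 and 3.79 CPM in DMSO. TBZ libraries lay below all others, and ABZ libraries above all others. Its log2 fold change was -0.72 ± 0.14 for TBZ (edgeR, adjusted p = 0.00648), 0.7 ± 0.14 for ABZ (edgeR, adjusted p = 0.014) and 0.42 ± 0.14 for OxBZ (edgeR, adjusted p = 0.0236), and FBZ (-0.03) and MBZ (0.38) did not pass. The ABZ call was lost with the replicate block (adjusted p = 0.0739) and without DMSO replicate 3 (adjusted p up to 0.0676), and the OxBZ call without ABZ replicate 1 or OxBZ replicate 1 or MBZ replicate 1 or DMSO replicate 1, 2 or 3 (adjusted p up to 0.146). Its target cyp-35D1 had 1288, 1155 and 1210 CPM under TBZ, against 0.664, 0.359 and 0.794 CPM in DMSO, a log2 fold change of 11 ± 0.3, with 6.27 ± 0.26 under ABZ, 4.14 ± 0.25 under OxBZ, 2.06 ± 0.25 under MBZ and 0.69 ± 0.27 under FBZ, where the libraries overlapped DMSO (edgeR, adjusted p = 0.0472). The 3 TBZ libraries held the lowest level of the receptor and the highest of its target.

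The pathogen sensor nhr-86 passed under no drug, at 33.7, 33.1 and 36.1 CPM under FBZ and 39.6, 38.7 and 36.4 CPM under OxBZ, against 36, 34.2 and 35.1 CPM in DMSO, and its log2 fold changes ran from -0.19 under TBZ to 0.12 under OxBZ. Exons of nhr-86 overlap those of comt-3 on the other strand, whose log2 fold change was 1.65 under ABZ, 2.05 under FBZ, 1.9 under OxBZ, 1.36 under MBZ and 0.45 under TBZ. Its target irg-4, an immune gene, rose under ABZ (3.95 ± 0.81), FBZ (3.9 ± 0.81), OxBZ (2.45 ± 0.76) and TBZ (2.84 ± 0.77), with 401, 425 and 70.5 CPM under ABZ and 267, 319 and 277 CPM under FBZ, against 20.4, 33.9 and 3.62 CPM in DMSO. For nhr-14, known from its part in iron uptake and pathogen resistance, levels were 44.1, 42.8 and 42.1 CPM under FBZ and 20.7, 23.9 and 22.1 CPM under OxBZ, against 57.1, 62.9 and 71 CPM in DMSO. The groups did not overlap, and the log2 fold change was -0.57 ± 0.11 for FBZ and -1.52 ± 0.11 for OxBZ (edgeR, adjusted p = 0.000878 and 2.46e-07). The sterol and toxin responsive nhr-8 rose under FBZ by 0.67 ± 0.1 (edgeR, adjusted p = 0.000255), beside F33D4.6 on the other strand, whose exons overlap it and which rose by 2.26, and nhr-48, a relative of nhr-8 and daf-12, rose by 0.45 ± 0.11 (edgeR, adjusted p = 0.00413). Over the list of 5 receptors, 1 rose and none fell under ABZ, 2 rose and 1 fell under FBZ, 1 rose and 1 fell under OxBZ, none passed under MBZ by edgeR, where 2 had an unadjusted p under 0.05 and 1 rose by DESeq2, and 1 fell under TBZ. Of all genes 1.6% rose under ABZ, 24.3% rose and 27.4% fell under FBZ, 21.2% and 21.5% under OxBZ, and 3.17% fell under TBZ. The median log2 fold change of the 5 was 0.06 for ABZ, -0.03 for FBZ, 0.12 for OxBZ, 0.20 for MBZ and -0.19 for TBZ.

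**Figure D5:**
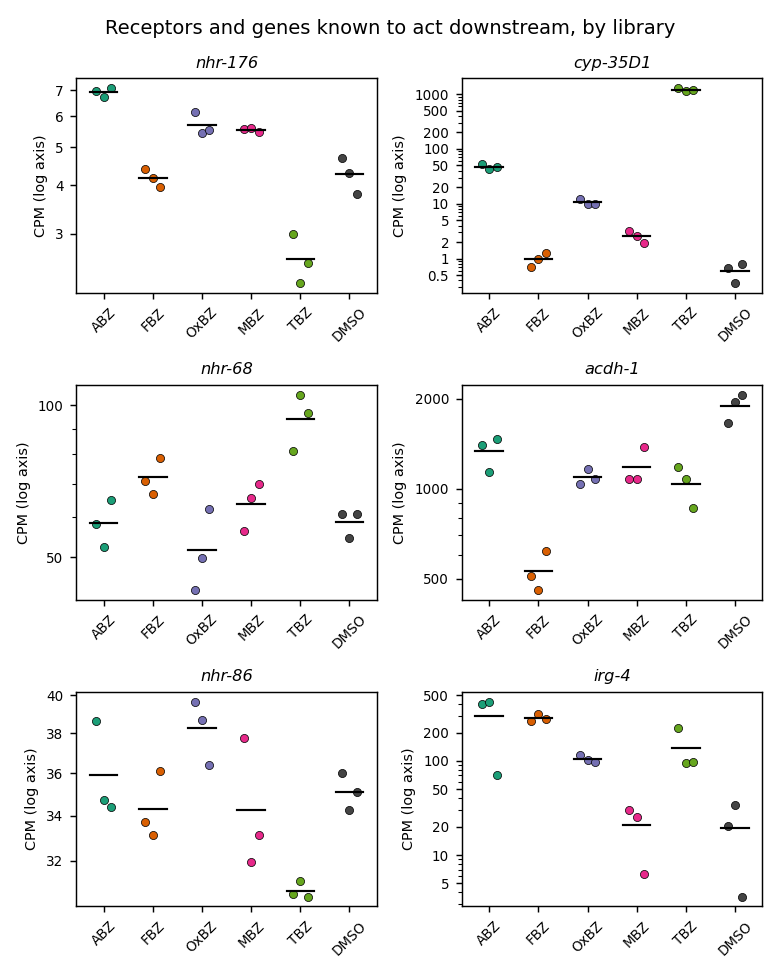
Levels in CPM (log axes) of the receptors nhr-176, nhr-68 and nhr-86 (left) and of a gene known to act downstream of each, cyp-35D1, acdh-1 and irg-4 (right), in each library, with a bar at the group mean (n = 3). TBZ libraries hold 2.99, 2.24 and 2.52 CPM of nhr-176, the lowest, and 1288, 1155 and 1210 CPM of cyp-35D1, the highest.

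Among receptors of metabolism the most abundant, nhr-49, did not pass under any drug. It had 179.5 ± 4.11 CPM under FBZ and 219 ± 39.9 CPM under TBZ, against 175 ± 14 CPM in DMSO (SD, n = 3), with log2 fold changes from -0.004 under ABZ to 0.32 under TBZ. The interval for TBZ was 0.089 to 0.552 (edgeR, adjusted p = 0.0991). Of the 8 genes it is known to control, 4 rose and 1 fell under FBZ, 1 rose and 3 fell under OxBZ, 1 fell under MBZ, 2 rose and 1 fell under TBZ, and none passed under ABZ by edgeR, where 2 had an unadjusted p under 0.05 and none passed by DESeq2. They did not move as a block: the desaturase gene fat-5 rose by 1.3 ± 0.29 under FBZ, where fat-7 fell to 2.74, 3.44 and 3.48 CPM, against 18.4, 82.5 and 23.9 CPM in DMSO, and the flavin monooxygenase gene fmo-2 fell under OxBZ to 8, 9.09 and 10.01 CPM, against 136, 42.9 and 236 CPM in DMSO. Among the 13 metabolic receptors 4 rose and 2 fell under FBZ, 2 rose and 2 fell under OxBZ, 1 fell under ABZ and 1 rose under TBZ, with medians of 0.29, -0.15, -0.01 and 0.15. Of all genes 24.3% rose and 27.4% fell under FBZ, 21.2% and 21.5% under OxBZ, and 3.06% and 3.17% under TBZ. Falls under ABZ and MBZ were 0.606% and 0.235% of all genes. Under MBZ none of the 13 receptors passed by edgeR, where 1 had an unadjusted p under 0.05 and 1 rose by DESeq2. The rises under FBZ were those of nhr-46 (0.67 ± 0.09), nhr-57, a target of the hypoxia factor HIF-1 (1 ± 0.16), nhr-31 and nhr-10 (0.31 ± 0.1), and the falls those of nhr-13 (-0.2 ± 0.08) and nhr-114 (-0.47 ± 0.18), whose FBZ libraries overlapped the DMSO libraries. Exons of nhr-57 overlap those of lgc-1 on the same strand, which rose by 0.83. Calls under FBZ were lost without FBZ replicate 1, 2 or 3 or DMSO replicate 2 (adjusted p up to 0.109) for nhr-10, in 12 of the 18 fits that left out 1 library (adjusted p up to 0.145) for nhr-13 and in 9 of the 18 fits that left out 1 library (adjusted p up to 0.278) for nhr-114. Under OxBZ nhr-66, another partner of NHR-49, rose by 0.19 ± 0.06 and nhr-46 by 0.31 ± 0.09, calls lost without ABZ replicate 1 or OxBZ replicate 1 or MBZ replicate 1 or TBZ replicate 2 or DMSO replicate 1 or 2 (adjusted p up to 0.284) for nhr-66 and without ABZ replicate 1 or OxBZ replicate 3 or DMSO replicate 2 (adjusted p up to 0.207) for nhr-46, while nhr-31 and nhr-114 fell, nhr-114 by 0.63.

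In the propionate circuit NHR-10 acts with NHR-68 to switch on shunt enzymes when propionate builds up. The receptor nhr-68 had 81.2, 105 and 96.5 CPM under TBZ, against 61, 54.6 and 61.1 CPM in DMSO, without overlap. Its log2 fold change under TBZ was 0.68 ± 0.13 (edgeR, adjusted p = 0.00847), a call lost without TBZ replicate 3 (adjusted p up to 0.0504), and no other drug passed. All 5 shunt genes measured were lower under TBZ and under FBZ, beside 3.17% and 27.4% of all genes. The first enzyme gene, acdh-1, had 1180, 1078 and 865 CPM under TBZ and 510.5, 460.1 and 619 CPM under FBZ, against 1659, 1950 and 2061 CPM in DMSO, with log2 fold changes of -0.86 ± 0.15 and -1.83 ± 0.15. Under TBZ the receptor rose while the genes it is known to activate fell. Intestinal markers were also lower under TBZ, in 4 of 9 by edgeR and 6 of 9 by DESeq2, and summed to 4840 to 5220 CPM, against 6560 to 7520 CPM in DMSO. Their part in the shunt values under TBZ and FBZ was not tested. Under MBZ 2 of the 5 fell and under ABZ 1 fell by edgeR, beside 0.235% and 0.606% of all genes. Under each of these drugs 4 of 5 had an unadjusted p under 0.05 and DESeq2 called 4 lower. Under OxBZ acdh-1 fell by 0.79 and hach-1, a later enzyme of the shunt, rose by 0.66 ± 0.14.

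Receptors conserved in flies and vertebrates were called most often under FBZ, where 6 of 11 rose and 2 fell, beside 24.3% and 27.4% of all genes, with a median log2 fold change of 0.67 beside -0.01 over all genes. Those that rose were nhr-41 (1.21 ± 0.21), nhr-91, of the GCNF class (1.37 ± 0.46), nhr-67, the tailless orthologue (0.95 ± 0.38), nhr-8, nhr-48 and nhr-111, with 0.173, 0.348 and 0.687 CPM, against 0.183, 0 and 0.0973 CPM in DMSO, and those that fell were nhr-6 and nhr-23. The FBZ libraries of nhr-111 overlapped the DMSO libraries and held few reads, so its call adds little to the share that rose. The molting regulator nhr-23 had 41.8, 43.3 and 41.1 CPM under FBZ, against 53.4, 63 and 50.5 CPM in DMSO, without overlap and with a log2 fold change of -0.4 ± 0.08 (edgeR, adjusted p = 0.000851). Its partner in molting, nhr-25, had 31.8, 31.7 and 34.9 CPM under FBZ, against 19.5, 3.37 and 15.7 CPM in DMSO, and did not pass at 1.35 ± 0.55 (edgeR, adjusted p = 0.0529). DMSO replicate 2 and ABZ replicate 2 were far below the other libraries of their groups for nhr-25, at 3.37 and 3.21 CPM, and were lowest of their groups also for nhr-67 and nhr-91. The FBZ calls were lost in 14 of the 18 fits that left out 1 library (adjusted p up to 0.112) for nhr-67, in 12 of the 18 fits that left out 1 library (adjusted p up to 0.192) for nhr-111 and without FBZ replicate 1 or 3 or DMSO replicate 2 (adjusted p up to 0.0819) for nhr-91. Under OxBZ nhr-85, the Rev-erb-like receptor, had 4.56, 4.88 and 5.04 CPM, against 9.53, 11 and 11.5 CPM in DMSO, a log2 fold change of -1.15 ± 0.17 (edgeR, adjusted p = 0.000181). Among 10 developmental receptors, several of them also in the conserved list, 4 rose and 2 fell under FBZ and 2 fell under OxBZ, beside the shares of all genes given above (24.3% and 27.4% under FBZ). One in both counts was nhr-40, a receptor needed for embryonic and muscle development, at 0.48 ± 0.14 for FBZ and -0.41 ± 0.14 for OxBZ, a call lost without OxBZ replicate 1 or 2 (adjusted p up to 0.0848). The conserved and developmental lists held no call under ABZ, MBZ or TBZ by edgeR, where 1, 2 and 1 of the 11 conserved and 1, 1 and 1 of the 10 developmental receptors had an unadjusted p under 0.05. DESeq2 called 1 conserved receptor higher under ABZ, none under MBZ and 1 lower under TBZ, and of the developmental receptors 1 lower under TBZ. Of 9 genes of the molt 2 rose and 1 fell under FBZ and 1 fell under OxBZ, beside 24.3%, 27.4% and 21.5% of all genes.

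Nuclear receptors with other names and their partners were measured alongside. Of daf-12, fax-1, odr-7, sex-1 and unc-55, 3 rose under FBZ, 1 rose and 1 fell under OxBZ, and none passed under ABZ, MBZ or TBZ by edgeR or DESeq2, with 1 unadjusted p under 0.05 for each. The steroid receptor gene daf-12 was among them, with 37.7, 35.4 and 39.5 CPM under FBZ and 25.8, 24.7 and 23.3 CPM under OxBZ, against 30.0, 32.7 and 28.3 CPM in DMSO, and log2 fold changes of 0.31 ± 0.09 and -0.3 ± 0.09. None of the 3 coregulator genes mdt-15, cbp-1 and din-1 passed under any drug by edgeR, where 1 had an unadjusted p under 0.05 under each of FBZ, OxBZ and MBZ, and DESeq2 called 1 higher under FBZ. Of 5 tested genes of sterol hormone synthesis 2 rose under FBZ, 2 rose and 1 fell under OxBZ, 2 rose under MBZ and 1 fell under TBZ. Of all genes 24.3% rose under FBZ, 21.2% rose and 21.5% fell under OxBZ, 1.25% rose under MBZ and 3.17% fell under TBZ.

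Drugs were also compared directly at their matched dose and time, in 10 pairs. The most members passed between FBZ and its sulfoxide OxBZ, 124 (55.4%), beside 60% of all genes. Higher under FBZ were 110 members (49.1%), beside 29.5% of all genes. For nhr-31 the difference FBZ minus OxBZ was 1.78 ± 0.18 on the log2 scale (edgeR, adjusted p over the 10 pairs = 1.43e-05), for nhr-14 0.95 ± 0.11 (adjusted p over the 10 pairs = 2.51e-05) and for nhr-99 1.63 ± 0.22 (adjusted p over the 10 pairs = 0.000113). It ran the other way for nhr-237, at -1.15 ± 0.2 (adjusted p over the 10 pairs = 0.000829), and for nhr-142, at -1.07 ± 0.2 (adjusted p over the 10 pairs = 0.00121). No difference was detected for nhr-112, at 0.04 ± 0.12 with an interval of -0.216 to 0.291. ABZ and MBZ, carbamates that differ in the side chain, differed in 1 member (0.446%) with p adjusted within the pair, beside 0.206% of all genes. This member was nhr-112, at -0.81 ± 0.12 (edgeR, adjusted p over the 10 pairs = 0.000179). With p adjusted over the 10 pairs, nhr-205 at 1.13 ± 0.25 and nhr-55 at -0.6 ± 0.16 also passed (edgeR, adjusted p = 0.0035 and 0.0121). For this pair the adjustment over the 10 pairs is the laxer one, because other pairs hold far more calls, and neither gene passed within the pair. The ABZ minus MBZ interval was -0.167 to 1.14 for nhr-178, -0.0866 to 0.785 for nhr-237 and -0.406 to 0.445 for nhr-142, so differences of more than 2-fold lie outside it for the last 2 genes and inside it for the first.

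TBZ, the drug without the carbamate, differed from ABZ in 21 members (9.38%), beside 6.33% of all genes, and from MBZ in 15 (6.7%), beside 3.45%. The difference ABZ minus TBZ was 2.24 ± 0.32 for nhr-178 (edgeR, adjusted p over the 10 pairs = 0.000158), 1.42 ± 0.14 for nhr-176 (adjusted p over the 10 pairs = 8.07e-06) and 1.13 ± 0.12 for nhr-112 (adjusted p over the 10 pairs = 1.42e-05), and 0.01 ± 0.24 for nhr-205, whose interval was -0.51 to 0.532. MBZ minus TBZ was 1.94 ± 0.12 for nhr-112 (adjusted p over the 10 pairs = 2.5e-07), 1.76 ± 0.32 for nhr-178 (adjusted p over the 10 pairs = 0.000918) and -1.12 ± 0.25 for nhr-205 (adjusted p over the 10 pairs = 0.0037). Of the other pairs, ABZ and FBZ differed in 79 members (35.3%, beside 42.7% of all genes) and ABZ and OxBZ in 68 (30.4%, beside 43.5%). FBZ and MBZ differed in 57 (25.4%, beside 26.9%) and FBZ and TBZ in 76 (33.9%, beside 35.7%). OxBZ and MBZ differed in 64 (28.6%, beside 42.4%) and OxBZ and TBZ in 74 (33%, beside 42%). Counts over pairs that share a drug are not independent of each other. A test of any difference among the 6 groups passed in 139 of 224 members (edgeR), beside 69.5% of all genes.

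Position in the genome was described without a test. Of the 143 tested members on chromosome V, 18.2% rose and 12.6% fell under OxBZ, while of the 81 on other chromosomes 9.88% rose and 23.5% fell. Over all tested genes these shares were 19.6% and 22.9% on chromosome V, and 21.8% and 21.1% elsewhere. The shares of members that rose on chromosome V and elsewhere were 8.39% and 3.7% under ABZ, 51% and 46.9% under FBZ, 6.29% and 2.47% under MBZ, and 9.09% and 8.64% under TBZ. For all genes they were 3.4% and 1.12% under ABZ, 27.7% and 23.3% under FBZ, 2.89% and 0.807% under MBZ, and 5.18% and 2.51% under TBZ. In 75 pairs of neighbouring members with both tested, both passed in the same direction in 24 of 61 pairs with a call under FBZ (39.3%), 7 of 41 under OxBZ (17.1%), 1 of 18 under ABZ (5.56%), 1 of 14 under TBZ (7.14%) and 0 of 9 under MBZ. The same shares over all neighbouring protein-coding genes were 25.5% for FBZ, 22.9% for OxBZ, 4.8% for ABZ, 4.82% for TBZ and 7.84% for MBZ. These shares are not at like call rates, as 49.6% of members and 24.3% of all genes rose under FBZ. Pairs can also share a member, so they do not show that neighbours change together. One pair of members under OxBZ passed in opposite directions. Neighbours that changed together under both FBZ and OxBZ were nhr-55 with nhr-99 and nhr-137 with nhr-173, which fell, and nhr-237 with nhr-238, nhr-12 with nhr-205 and nhr-154 with nhr-209, which rose. These neighbours were named after their calls were seen.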

How the data were processed

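RNA of whole worms was sequenced in 18 libraries, 3 in each of 6 groups, as pairs of 100-nt reads. The values used are whole-number read counts per gene, deposited by the authors as 1 table. Subread 1.4.6 and featureCounts are named in the submitters' processing notes, while build, annotation and strand setting are not given there. Where exons of genes overlap, the origin of reads is therefore uncertain: exons of 46 members overlap a gene on the other strand and those of 22 a gene on the same strand. Groups came from sample titles, since the treatment field of OxBZ replicate 2 is spelled differently from the others. Members were matched by WormBase identifier to symbols, chromosomes and exon lengths of Ensembl annotation 115. The table held 268 of the 269 nhr symbols listed there, and all columns of the table were used.

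The filterByExpr rule at a minimum count of 10 kept 17484 of 20395 genes, and edgeR 4.0.16 in R 4.3.3 with limma 3.58.1 fitted all 18 libraries at once (TMM scaling, robust quasi-likelihood, 12 residual degrees of freedom, a common biological coefficient of variation of 0.303). P-values were adjusted by the Benjamini-Hochberg method over all genes with a threshold of 0.05, and values of direct drug differences carry a p adjusted over all genes and the 10 pairs, while members were counted within each pair. Levels are CPM values with TMM-scaled library sizes. The standard error is the log2 fold change divided by the root of the F statistic, and intervals are 95% intervals. The fit was tested on simulated counts. Members and lists were chosen with earlier results of these data known. Named genes were, per drug, the top 6 rises and top 4 falls of called members of at least 1 CPM whose libraries did not overlap DMSO, the members of the receptor role lists, those called in 1 direction under at least 4 drugs, the 5 widest opposite responses, the widest differences between drugs, the 5 highest per length and called genes of the pathway lists.

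Replicate numbers paired ABZ with DMSO libraries, as same-numbered libraries deviated together from their group means across genes (r = 0.727, 0.837 and 0.57). In no other comparison with DMSO did every pair exceed 0.1, and the labels do not say what the numbers mark. Between drugs, the MBZ and TBZ libraries numbered 2 and 3 also deviated together (r = 0.312 and 0.436). Whether a drug group shared culture batches with DMSO is therefore not known, and its part in the counts was not tested. Alternatives were DESeq2 1.42.0, its size factors, library totals, no filter, a 2-fold minimum, the replicate block, only the compared groups, and each library left out.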

Additional observations from a re-analysis of the deposited data

How the results depend on the processing

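Only nhr members named by the rule above were followed gene by gene through the alternatives. Genes of the pathway lists and members named only for their position were not. No called change of the followed members against DMSO reversed its direction under any alternative. Of 105 such calls, 105 were kept by DESeq2, 103 with its size factors, 100 without the filter on low counts, 96 with library totals and 90 with the replicate block in all 18 libraries, whereas fits of the compared groups alone kept 52 of 101, and 50 of 101 with the block. Library totals moved the median of all genes by 0.179 under FBZ, 0.104 under MBZ and 0.175 under TBZ on the log2 scale.

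Counts of members that changed by more than 1.5 times were the following, and the cause was not tested. A 2-fold minimum left 6 higher and 1 lower under ABZ, 46 and 8 under FBZ, 14 and 14 under OxBZ, 6 and 0 under MBZ, and 8 and 1 under TBZ. Library totals gave 11 lower under FBZ, 0 lower under MBZ and 39 higher under TBZ. DESeq2 called 28 higher under ABZ, 21 higher and 2 lower under MBZ, and 2 between ABZ and MBZ. Fits of a drug and DMSO alone, with fewer libraries to estimate the spread, gave 0 higher and 0 lower under ABZ, MBZ and TBZ, 11 lower under FBZ and 18 higher under OxBZ. With the replicate block in those fits, ABZ had 11 higher and 1 lower, FBZ 59 and 9, OxBZ 9 and 12, and MBZ and TBZ 0 and 0. With the replicate block in all 18 libraries, 0 were lower under MBZ, 7 higher and 2 lower under TBZ, and 8 differed between MBZ and TBZ. Among comparisons with DMSO, replicate numbers are a pairing for ABZ alone, so the other block counts describe libraries that share a number.

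Without both the ABZ and DMSO libraries numbered 2, 6 members were higher under ABZ, 11 lower under FBZ, 21 higher under OxBZ, 6 higher and 0 lower under MBZ, and 10 higher under TBZ, and the median of members under OxBZ was -0.08 in place of 0.05. Over the 18 fits without 1 library, higher members numbered 7 to 17 under ABZ, 85 or more under FBZ, 17 to 38 under OxBZ, 3 to 13 under MBZ and 6 to 35 under TBZ, and lower members 1 to 3, 11 to 17, 30 to 47, 0 to 2 and 3 to 7. Members that differed numbered 57 to 88 between ABZ and FBZ, 41 to 77 between ABZ and OxBZ, 0 to 2 between ABZ and MBZ, 16 to 25 between ABZ and TBZ, 98 to 139 between FBZ and OxBZ, 29 to 75 between FBZ and MBZ, 56 to 85 between FBZ and TBZ, 48 to 71 between OxBZ and MBZ, 59 to 82 between OxBZ and TBZ, and 8 to 25 between MBZ and TBZ. The test over 6 groups passed in 118 to 153. In the smallest library 1 read was 0.018 CPM, so members near that level rest on few reads.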
